A study of Mus musculus with 40 samples.

Results

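Neural progenitor and neuron genes were followed in mouse embryonic stem cells and after retinoic acid (RA). The set has 33 genes, picked by name from 8 roles: 5 neural stem and progenitor genes, 3 dorsal, 3 intermediate and 4 ventral patterning factors, 4 proneural bHLH factors, 4 neuron subtype factors, 8 neuron structural genes and 2 neuronal RNA-binding genes. All 33 were found among the 23228 gene symbols listed in every RNA-seq library, 1 of them (Map2) under its older symbol Mtap2. RNA was measured in 8 libraries, 2 for each of 4 groups: wild type untreated, GLP 3A untreated, wild type with RA and GLP 3A with RA. Ehmt1 encodes GLP, an enzyme that methylates lysine 9 on histone H3, and the GLP 3A cells are homozygous for a mutation of it. The labels give every group a mixed C57BL/6 background. The targeting was done in R1 embryonic stem cells, from which clones were picked, and no label tells how many independent lines stand for each genotype. All cells had left their feeders for 2i medium, which holds stem cells in an undifferentiated state. RA was all-trans retinoic acid at 1 uM, and LIF, the cytokine that maintains these cells, was taken away in the same step, so RA and the loss of LIF cannot be told apart. No label tells how long the treatment lasted. Of 40 samples in all, the 32 chromatin and input samples are not analysed here.

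In the embryo, neural tissue begins as a sheet of dividing progenitors marked by SoxB1 factors and the filament protein nestin. Signals from the dorsal and ventral edges of the neural tube then assign each progenitor a position through homeodomain, paired-box and zinc-finger factors, and proneural bHLH factors drive cells out of division into neurons, which build a cytoskeleton of neuronal tubulin, microtubule-associated proteins and stathmins. RA is a signal of the hindbrain and spinal cord, and its addition to stem cells is a common way to obtain neural cells in culture.

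Values are RPKM, read numbers scaled to gene length and library size, as deposited. Differences are on the scale of log2(RPKM + 1), which understates the change of low genes, and are given with the standard error (SE) of a linear model fitted to all genes with limma. A gene was called when its p, adjusted over all 13198 genes tested, was under 0.05. No source says that the 2 libraries of a group came from separate cultures, so each p measures just how far these libraries spread, which may be technical. The RPKM tables hold no read counts, and the spacing of their low values gave the replicate 2 libraries with RA and of untreated GLP 3A a relative depth of 0.436 to 0.569, with replicate 1 at 0.959 to 1.25 and wild type untreated replicate 2 undecided between 0.5 and 1. Liver RNA markers stood apart in replicate 2 of all 4 groups: the summed RPKM of 7 liver markers was 4.09 to 17.7 in replicate 1 and 230 to 669 in replicate 2, and Alb, the albumin gene, was at 1.06 to 5.64 and 177 to 520 RPKM. The part of that RNA in the results below was not tested, and each called difference was also read in replicate 1 alone. Ehmt1 itself stood at 18.4 and 17.6 RPKM in wild type without RA (GLP 3A 14.1 and 14.3), and at 24.4 and 23.5 against 13.0 and 13.9 with RA. It was called lower in GLP 3A without RA (-0.32 ± 0.07, adjusted p = 0.0334) and with RA (-0.79 ± 0.07, adjusted p = 0.0041). Such RNA levels do not show the mutation itself. In bulk RNA, fewer cells of a type and less RNA per cell cannot be told apart, and this holds for every value below.

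Of the 33 genes, 22 reached at least 1 RPKM in at least 2 libraries and were tested. The other 11 (Fabp7, Pou3f2, Pax7, Dbx1, Nkx2-2, Nkx6-1, Neurog2, Neurod4, Isl1, Onecut1 and Elavl4) stayed under 1 RPKM in all 8 libraries, the highest value among them being 0.948 RPKM for Elavl4 in untreated GLP 3A. With RA, 12 of the 22 rose and 8 fell in wild type, where 68.5% of all tested genes were called (33.7% higher and 34.8% lower). In GLP 3A, 11 rose and 8 fell, where 70.4% of all tested genes were called (32.3% higher and 38.1% lower). Both counts, and the medians below, are fixed in part by the filter and nothing is read from them: 9 genes (Pax3, Zic1, Pax6, Irx3, Mnx1, Onecut2, Dcx, Stmn4 and Ncam1) passed it only through RA libraries and 3 (Olig2, Neurod1 and Elavl3) only through untreated ones. Pax3 passed it only through the 2 wild type RA libraries, so its calls between genotypes with RA and for the response are fixed in part in the same way. Between genotypes, 4 of the 22 were higher and 1 lower in untreated GLP 3A, where 11.7% of all tested genes were called (7.52% higher and 4.15% lower), and 2 were higher and 3 lower with RA, where the share was 10.6% (5.3% higher and 5.31% lower). The RA response itself differed for 2 genes, Pax3 and Stmn3, where 1.8% of all tested genes were called (0.561% with a higher and 1.24% with a lower response in GLP 3A). The median difference of the 22 beside that of all tested genes was 1.18 and -0.03 for RA in wild type, 0.79 and -0.07 for RA in GLP 3A, 0.04 and 0.04 between untreated genotypes, 0.06 and -0.01 between genotypes with RA, and -0.27 and -0.06 for the difference of responses. In replicate 1 alone, each called difference had the same sign: 20 of 20 and 19 of 19 for RA, 5 of 5 in each genotype comparison and 2 of 2 for the difference of responses. The calls came from fits that hold replicate 1, so this outcome is largely fixed in advance. It does not test the part of the liver RNA.

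**Figure D1:**
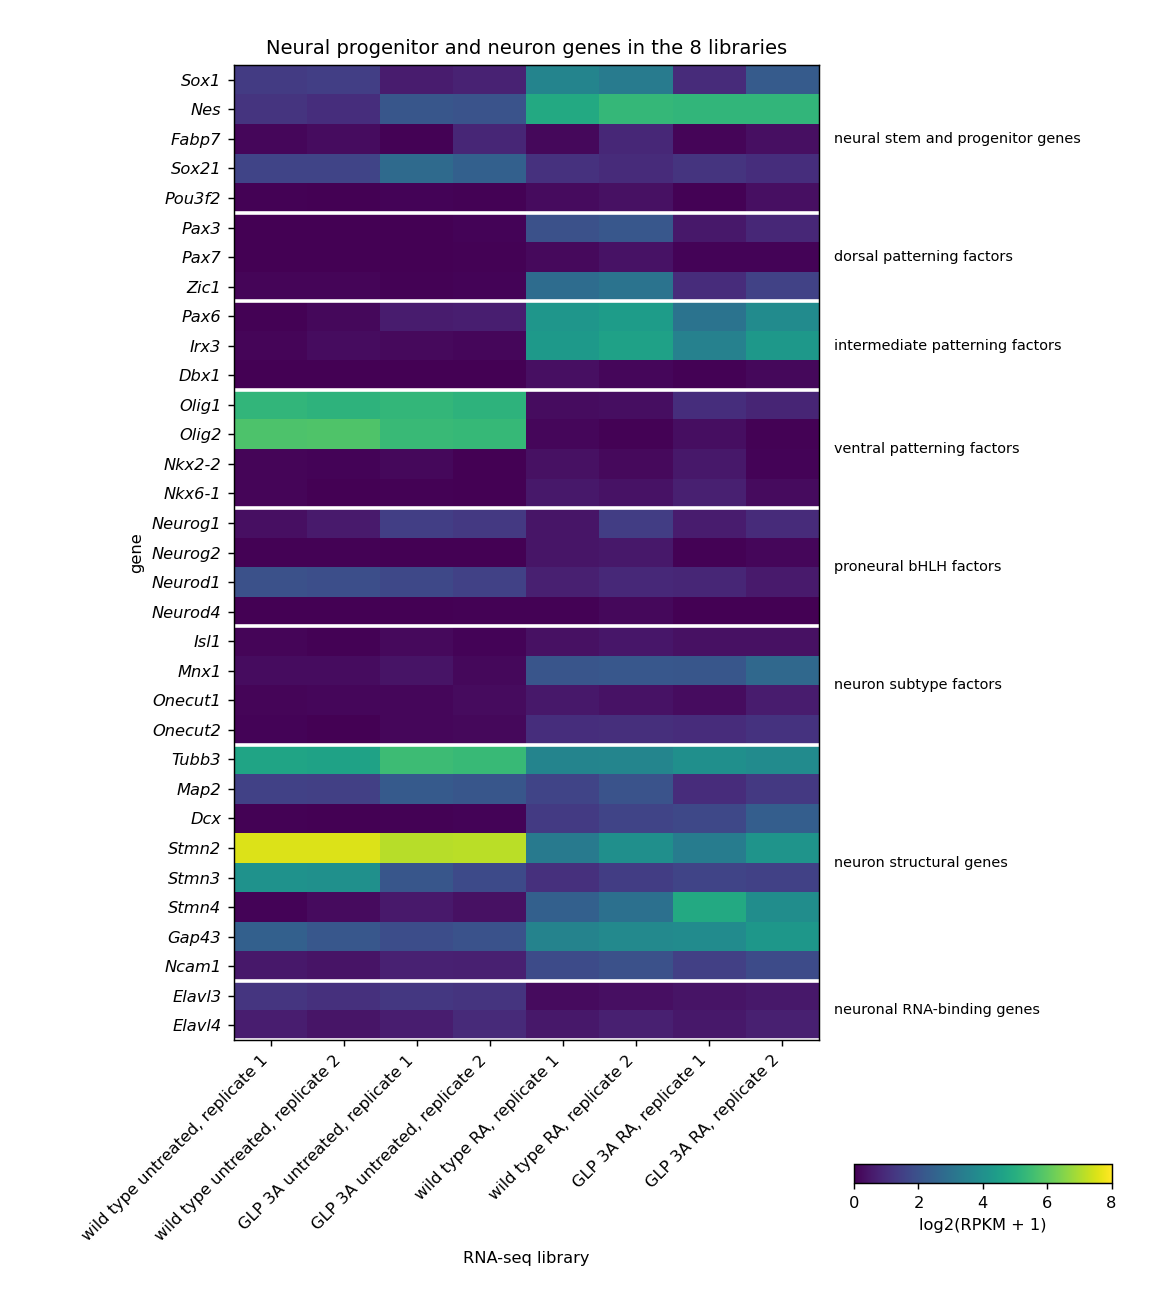
Level of each of the 33 genes (rows, by role) in each of the 8 libraries (columns), as log2(RPKM + 1) from dark (0) to bright (8). Olig1, Olig2, Stmn2 and Tubb3 are bright in the 4 untreated libraries, Nes, Pax6 and Irx3 in the 4 libraries with RA, and 11 rows stay under 1 RPKM throughout.

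The promoters of 4 genes are shown, those with the largest called differences between genotypes among the genes that the RefSeq table held: Stmn3 and Sox21, which differed without RA, and Sox1 and Zic1, which differed with it. Each sequence is the 250 bases before the annotated start, 5′ to 3′ on the gene's strand, from RefSeq on GRCm38.p6, a build other than the mm9 of the expression files: Stmn3 at chr2:181314501-181314750 (minus strand), Sox21 at chr14:118237031-118237280 (minus strand), Sox1 at chr8:12395269-12395518 (plus strand) and Zic1 at chr9:91365769-91366018 (minus strand). Capitals mark any match, on either strand, to AGGTCA (a retinoid receptor half-site), to the E-boxes CAGCTG and CAGATG that bHLH factors bind, or to CAGCACC, a part of the element bound by the neuronal gene repressor REST.
Stmn3: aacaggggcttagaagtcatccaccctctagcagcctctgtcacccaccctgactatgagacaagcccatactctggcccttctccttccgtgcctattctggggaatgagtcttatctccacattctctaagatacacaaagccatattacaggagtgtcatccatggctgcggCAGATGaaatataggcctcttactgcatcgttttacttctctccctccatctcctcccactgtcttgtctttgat
Sox21: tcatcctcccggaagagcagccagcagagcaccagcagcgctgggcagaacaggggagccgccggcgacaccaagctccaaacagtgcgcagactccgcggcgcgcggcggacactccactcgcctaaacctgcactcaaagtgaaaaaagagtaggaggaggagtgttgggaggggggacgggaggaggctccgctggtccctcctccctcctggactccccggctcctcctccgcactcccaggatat
Sox1: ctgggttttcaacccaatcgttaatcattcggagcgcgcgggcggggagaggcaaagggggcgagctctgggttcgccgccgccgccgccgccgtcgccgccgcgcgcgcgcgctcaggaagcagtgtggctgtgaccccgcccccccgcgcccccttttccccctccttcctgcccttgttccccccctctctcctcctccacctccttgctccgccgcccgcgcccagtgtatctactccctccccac
Zic1: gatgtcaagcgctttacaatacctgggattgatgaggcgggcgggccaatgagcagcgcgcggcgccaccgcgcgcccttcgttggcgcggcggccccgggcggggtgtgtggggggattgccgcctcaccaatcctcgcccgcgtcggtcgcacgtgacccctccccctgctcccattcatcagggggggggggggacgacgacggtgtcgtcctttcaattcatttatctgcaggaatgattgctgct
The Stmn3 window held 1 match, a CAGATG whose first base is 75 bases before the start, and the letters searched did not occur in the other windows. G and C made up 48.8% of the Stmn3 window, which has 3 CG dinucleotides. They made up 71.2% of the Sox1 window (29 CG), 66.0% of the Zic1 window (27 CG) and 65.2% of the Sox21 window (17 CG), beside medians of 52.4% and 6 CG over all promoters of the table. Among 32851 such windows, AGGTCA occurred in 14.0%, CAGCTG in 13.0%, CAGATG in 14.4% and CAGCACC in 5.7%. The table held 32 windows of 26 of the 33 genes, and the same motifs occurred in 12.5%, 12.5%, 18.8% and 3.1% of these. A match is a description of the letters and not a bound site.

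Progenitor genes did not move as a block with RA: Sox1 and Nes rose in wild type, and Sox21 fell. Sox1, the SoxB1 factor that marks the first neural cells, had 1.63 and 1.78 RPKM without RA in wild type, against 11.2 and 9.07 RPKM with RA (log2 difference 2.03 ± 0.39 SE, adjusted p = 0.00396). In GLP 3A it stood at 0.532 and 0.699 RPKM without RA and at 0.979 and 3.96 with it, and this difference of 0.96 ± 0.39 was not called (adjusted p = 0.0676). The 2 RA libraries of GLP 3A lay far apart for Sox1, both below wild type with RA, and without replicate 1 of that group the difference was 1.62 and called (adjusted p = 0.00038). Sox1 shares its locus with Gm5607, and strand is not given, so its values are uncertain to that extent. Nes, which encodes the progenitor filament nestin, had 1.30 and 1.08 RPKM without RA in wild type, against 28.1 and 39.2 with RA (3.97 ± 0.15, adjusted p = 8.66e-06). In GLP 3A it went from 3.40 and 3.09 to 37.5 and 37.2 RPKM (3.18 ± 0.15, adjusted p = 1.7e-05). With RA, Nes had the highest mean RPKM of the 33 genes in both genotypes. Sox21, a SoxB2 factor that counters SoxB1 proteins in progenitors, had 2.11 and 2.12 RPKM without RA in wild type, against 1.22 and 0.998 with RA (-0.56 ± 0.14, adjusted p = 0.0104), and went from 5.74 and 4.42 to 1.32 and 1.05 in GLP 3A (-1.47 ± 0.14, adjusted p = 0.000166). The Sox21 groups did not overlap in either genotype, but its call in wild type was lost without either untreated wild type library or without wild type RA replicate 2 (adjusted p = 0.0506 to 0.0541). Fabp7, a fatty acid binding protein of radial glia, stayed at or below 0.851 RPKM, with the higher value in replicate 2 of every group, and the POU factor gene Pou3f2 stayed at or below 0.277 RPKM.

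The dorsal factors Pax3 and Zic1 and the intermediate factors Pax6 and Irx3 rose with RA in both genotypes. Pax3, a paired-box factor of the dorsal neural tube, had 0.0129 and 0 RPKM without RA in wild type, against 3.00 and 3.48 with RA (2.07 ± 0.15, adjusted p = 6.68e-05), while the mutant had 0.0197 and 0.0545 without RA and 0.427 and 0.856 with RA (0.65 ± 0.15, adjusted p = 0.00815). Zic1, a zinc-finger factor of the dorsal neural tube, had 0.0741 and 0.0775 RPKM without RA in wild type, against 6.14 and 7.33 with RA (2.84 ± 0.20, adjusted p = 5.66e-05), while the mutant had 0.0253 and 0.0502 without RA and 1.01 and 2.02 with RA (1.25 ± 0.20, adjusted p = 0.00159). Every library with RA lay above every untreated one for both genes, and the GLP 3A values with RA lay below those of wild type. Pax7, the close relative of Pax3 in the same dorsal cells, reached 0.302 RPKM at most. The Pax3 call in GLP 3A, where no library reached 1 RPKM, was lost with quantile normalization (0.34, adjusted p = 0.0688).

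Pax6, a paired-box factor of forebrain and spinal cord progenitors, had 0.0265 and 0.117 RPKM without RA in wild type, against 17.4 and 20.5 with RA (4.21 ± 0.26, adjusted p = 3.49e-05), while the mutant had 0.531 and 0.602 without RA and 7.26 and 13.7 with RA (2.81 ± 0.26, adjusted p = 0.000152). It shares its locus with Pax6os1. Irx3, a homeodomain factor of the intermediate neural tube, had 0.0724 and 0.204 RPKM without RA in wild type, against 19.1 and 23.1 with RA (4.28 ± 0.25, adjusted p = 2.94e-05), while the mutant had 0.154 and 0.0972 without RA and 10.4 and 18.4 with RA (3.72 ± 0.25, adjusted p = 4.79e-05). Irx3 and Pax6 followed Nes in mean RPKM in wild type with RA, and their library values overlap each other. Dbx1, a factor of the progenitors at the middle of the neural tube, was listed at 0 in all 4 untreated libraries and at 0.0364 to 0.268 RPKM with RA.

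The ventral factors Olig1 and Olig2 fell with RA from high untreated levels. These bHLH factors act in motor neuron and oligodendrocyte progenitors of the ventral neural tube, and their genes are neighbours on chromosome 16 in mm9, Olig2 at chr16:91225794-91228922 and Olig1 at chr16:91270013-91272184, 41091 bases apart. Olig2 had 53.2 and 54.4 RPKM without RA in wild type and 41.9 and 39.7 in the mutant, above 85.9% and 80.5% of the tested genes by mean RPKM. With RA it stood at 0.108 and 0.0364 RPKM in wild type (-5.68 ± 0.10, adjusted p = 1.95e-06) and at 0.223 and 0.0427 in GLP 3A (-5.21 ± 0.10, adjusted p = 3.14e-06). Olig2 had the largest decrease of the 22 tested genes in each genotype. Olig1 had 37.2 and 35.3 RPKM without RA in wild type and 38.5 and 35.4 in the mutant, and was at 0.198 and 0.236 in wild type with RA (-4.93 ± 0.10, adjusted p = 2.56e-06) and 1.06 and 0.780 in GLP 3A with RA (-4.30 ± 0.10, adjusted p = 4.01e-06). The other ventral factors, Nkx2-2 and Nkx6-1, homeodomain factors downstream of Sonic hedgehog, were too low to be tested, and most of their higher values were with RA. Nkx6-1 had 0.0677 and 0 RPKM without RA in wild type, against 0.426 and 0.316 with RA, and the mutant had 0.0303 and 0, against 0.620 and 0.183, with no overlap in either genotype. Nkx2-2 had 0.0884 and 0.0655 RPKM without RA in wild type, against 0.271 and 0.159 with RA, and 0.124 and 0 against 0.441 and 0.0626 in the mutant, where the groups overlap. The Nkx2-2 locus holds the antisense symbol Nkx2-2as.

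**Figure D2:**
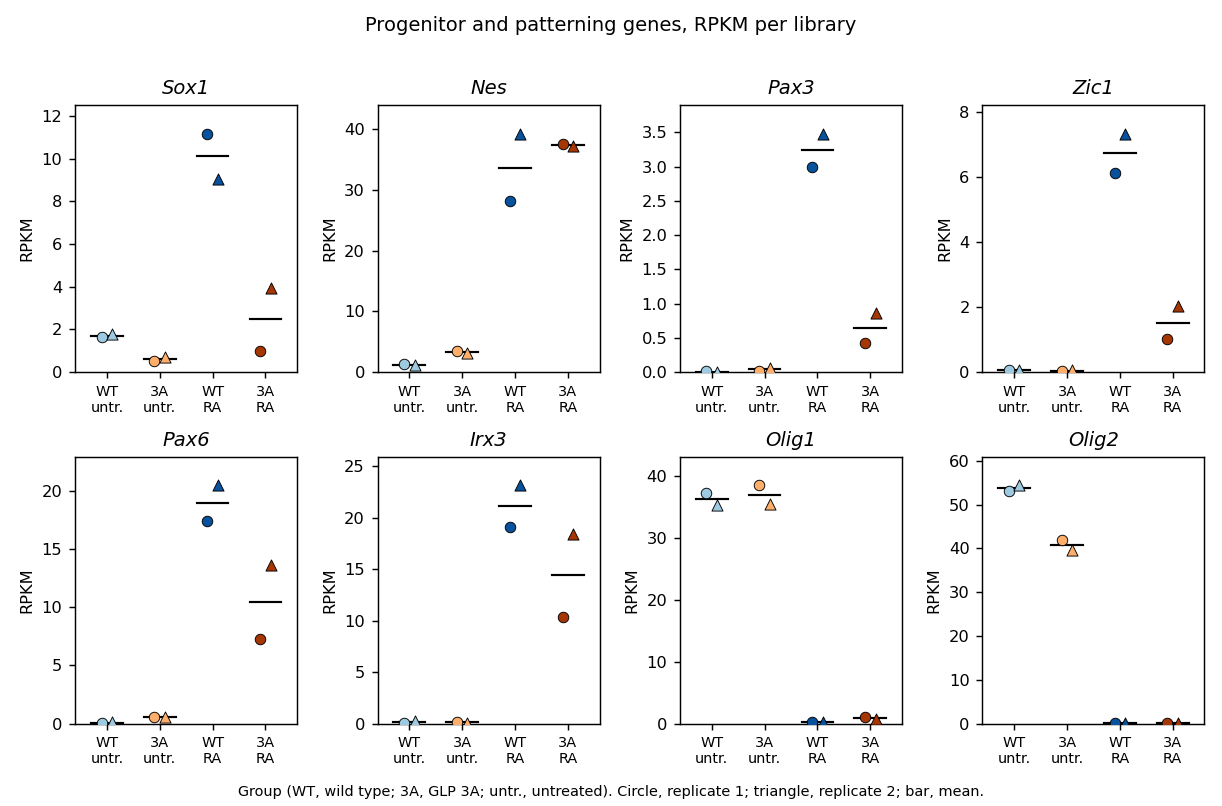
RPKM of 8 progenitor and patterning genes in each library (linear axes from 0, circles replicate 1, triangles replicate 2, bars the mean of 2 libraries). Olig1 and Olig2 are at 35 RPKM or more in all untreated libraries and at 1.06 RPKM or less with RA, while Pax3 and Zic1 are highest in wild type with RA.

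Of the proneural bHLH factors, which push progenitors into neuronal differentiation, 2 were tested, and Neurod1 fell with RA. Neurod1 had 3.00 and 2.79 RPKM without RA in wild type, against 0.619 and 0.887 with RA (-1.16 ± 0.14, adjusted p = 0.000544), while the mutant had 2.30 and 1.92 without RA and 0.810 and 0.499 with RA (-0.91 ± 0.14, adjusted p = 0.00144). Neurog1 had 0.250 and 0.490 RPKM without RA in wild type, against 0.358 and 1.71 with RA, groups that overlap (0.49 ± 0.33, adjusted p = 0.222). In GLP 3A Neurog1 was at 1.82 and 1.496 RPKM without RA and at 0.541 and 0.986 with it (-0.60 ± 0.33, adjusted p = 0.142). The wild type RA libraries are far apart for Neurog1, and without replicate 1 of that group its difference in wild type was 0.99 and called (adjusted p = 0.0114). Neurog2 reached 0.426 RPKM and Neurod4 0.12 RPKM, both in wild type with RA.

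Among the neuron subtype factors, Mnx1 and Onecut2 rose with RA in both genotypes. Mnx1, a homeodomain factor of motor neurons that also acts in notochord and pancreas, had 0.198 and 0.206 RPKM without RA in wild type, against 3.29 and 3.47 with RA (1.87 ± 0.20, adjusted p = 0.000298), while the mutant had 0.327 and 0.121 without RA and 3.39 and 5.56 with RA (2.14 ± 0.20, adjusted p = 0.000162). Onecut2, a cut-homeodomain factor of early-born neurons, had 0.0555 and 0.0195 RPKM without RA in wild type, against 1.05 and 1.10 with RA (1.00 ± 0.11, adjusted p = 0.000343), while the mutant had 0.111 and 0.139 without RA and 1.01 and 1.28 with RA (0.93 ± 0.11, adjusted p = 0.000437). The genotypes overlapped for both genes with RA. Isl1, the LIM-homeodomain factor that acts with Mnx1 in motor neurons, reached 0.385 RPKM at most, and Onecut1 0.531 RPKM.

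Neuron structural genes went both ways with RA, and the most abundant of them were high in untreated stem cells. Stmn2, a stathmin that destabilizes microtubules in growing axons, had the highest RPKM of all 33 genes without RA, above 95.6% of the tested genes in wild type and 94.0% in GLP 3A. It had 189.1 and 191.5 RPKM without RA in wild type, against 8.82 and 14.8 with RA (-3.94 ± 0.30, adjusted p = 7.99e-05), while the mutant had 139.8 and 144.7 without RA and 9.24 and 16.6 with RA (-3.42 ± 0.30, adjusted p = 0.000131). Tubb3, the neuronal beta-tubulin often used to stain neurons, had 24.6 and 23.6 RPKM without RA in wild type, against 11.2 and 11.6 with RA (-1.02 ± 0.07, adjusted p = 7e-05), while the mutant had 44.2 and 41.0 without RA and 14.9 and 13.7 with RA (-1.51 ± 0.07, adjusted p = 1.82e-05). Both genes were thus lower in every RA library than in every untreated library. Map2, a microtubule-associated protein of dendrites, had 1.90 and 1.83 RPKM without RA in wild type, against 2.14 and 3.09 with RA (0.32 ± 0.17, adjusted p = 0.13), while the mutant had 3.81 and 3.44 without RA and 1.01 and 1.53 with RA (-1.03 ± 0.17, adjusted p = 0.00174).

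The other stathmins differed from Stmn2 and from each other. Stmn3 had 15.7 and 15.02 RPKM without RA in wild type, against 1.17 and 1.73 with RA (-2.75 ± 0.16, adjusted p = 2.71e-05). In GLP 3A it was already low without RA, at 3.37 and 2.47 RPKM, and stood at 2.09 and 1.90 with RA (-0.38 ± 0.16, adjusted p = 0.0656). Stmn4 went the other way, from 0.0640 and 0.177 RPKM in untreated wild type to 4.52 and 6.81 with RA (2.55 ± 0.32, adjusted p = 0.000635), and from 0.467 and 0.274 to 28.3 and 14.0 in GLP 3A (3.94 ± 0.32, adjusted p = 0.000102). The 3 stathmin genes lie on 3 chromosomes in mm9: Stmn2 at chr3:8509526-8561604, Stmn3 at chr2:181041163-181049205 and Stmn4 at chr14:66963211-66980517.

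Dcx, Gap43 and Ncam1 rose with RA in both genotypes. Dcx, a microtubule protein of migrating young neurons, had 0.0279 and 0.00800 RPKM without RA in wild type, against 1.58 and 2.11 with RA (1.48 ± 0.22, adjusted p = 0.0012), while the mutant had 0.0277 and 0.0629 without RA and 2.351 and 4.24 with RA (2.00 ± 0.22, adjusted p = 0.000306). Gap43, a growth cone protein, had 4.44 and 3.55 RPKM without RA in wild type, against 10.9 and 12.6 with RA (1.36 ± 0.16, adjusted p = 0.000443), while the mutant had 2.73 and 3.05 without RA and 13.4 and 17.8 with RA (2.08 ± 0.16, adjusted p = 7.8e-05). Ncam1, a cell adhesion molecule of neurons and other cells, had 0.421 and 0.353 RPKM without RA in wild type, against 2.51 and 2.98 with RA (1.43 ± 0.13, adjusted p = 0.000183), while the mutant had 0.653 and 0.641 without RA and 1.89 and 2.58 with RA (0.96 ± 0.13, adjusted p = 0.000905). The groups with and without RA did not overlap for these 3 genes. Ncam1 shares its locus with Gm11149. The neuronal RNA-binding gene Elavl3 fell, from 1.34 and 1.18 RPKM to 0.186 and 0.243 in wild type (-0.90 ± 0.11, adjusted p = 0.000463) and from 1.48 and 1.30 to 0.343 and 0.418 in GLP 3A (-0.79 ± 0.11, adjusted p = 0.000737). Its relative Elavl4 was at 0.366 to 0.948 RPKM without RA and at 0.425 to 0.625 with it.

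**Figure D3:**
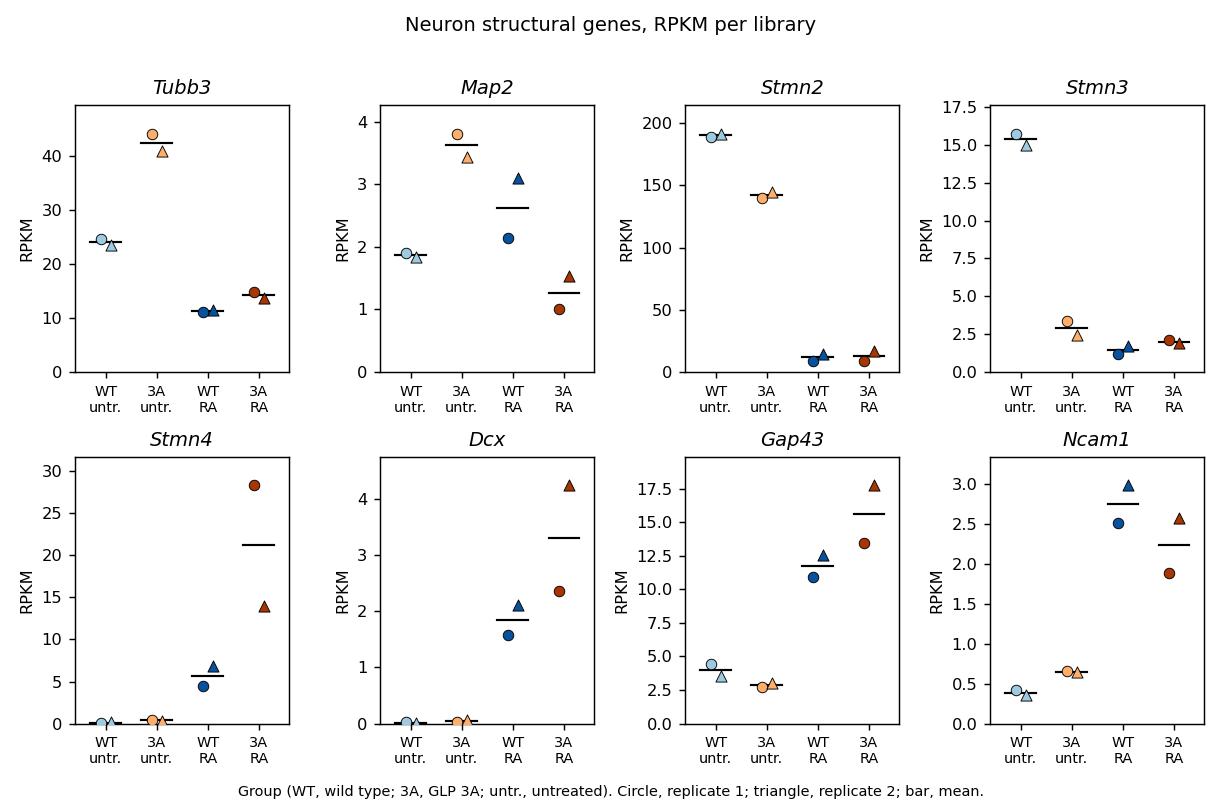
RPKM of the 8 neuron structural genes in each library (linear axes from 0, circles replicate 1, triangles replicate 2, bars the mean of 2 libraries). Stmn2 and Tubb3 are lower in all 4 RA libraries, Stmn3 is high in untreated wild type alone at 15.02 RPKM or more, and Stmn4, Dcx, Gap43 and Ncam1 are higher with RA.

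Across the 22 tested genes, 11 rose in both genotypes (Nes, Pax3, Zic1, Pax6, Irx3, Mnx1, Onecut2, Dcx, Stmn4, Gap43 and Ncam1) and 7 fell in both (Sox21, Olig1, Olig2, Neurod1, Tubb3, Stmn2 and Elavl3). Of all tested genes, 28.3% rose and 31.1% fell in both, and 9 of the 11 and 3 of the 7 passed the filter only through the state in which they are higher. In addition, Sox1 rose and Stmn3 fell with a call in wild type only, Map2 fell with a call in GLP 3A only, and Neurog1 was called in neither. A call in 1 genotype is not a difference between them, which is given below. By mean RPKM the leading genes changed with RA: Stmn2 (190.3), Olig2 (53.8), Olig1 (36.2), Tubb3 (24.1) and Stmn3 (15.4) led in untreated wild type, and Nes (33.6), Irx3 (21.1) and Pax6 (18.9) led with RA. In GLP 3A with RA the order was Nes (37.4), Stmn4 (21.2), Gap43 (15.6), Irx3 (14.4) and Tubb3 (14.3), of which the last 4 overlap in their library values.

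RNA of other cell types changed beside these genes with RA. All 6 undifferentiated stem cell markers fell in both genotypes, from summed RPKM of 2137 to 2504 without RA to 13.3 to 35.1 in wild type and 31.0 to 70.3 in GLP 3A, with none at 0. In wild type, 7 of 8 primitive endoderm markers, 5 of 6 tested mesenchyme and fibroblast markers, 4 of 4 tested heart markers, 5 of 8 tested neural crest and Schwann cell markers, 3 of 6 tested placode and epithelium markers and 2 of 4 tested glia markers rose. In GLP 3A the counts were 5, 5, 3, 4, 2 and 1 of the same numbers. Of all tested genes, 33.7% rose in wild type and 32.3% in GLP 3A. The 4 tested heart markers and most primitive endoderm markers passed the filter only through RA libraries. These counts are thus fixed in part by the filter and nothing is read from them. Other markers of these lists fell: 2 neural crest markers in each genotype (Foxd3, -3.71 and -3.76, and Ngfr, -2.37 and -1.31), 1 mesenchyme marker in each (Thy1, -1.05 and -1.08), and 2 placode and epithelium markers in wild type (Epcam, -0.90, and Eya1, -0.88) and 1 in GLP 3A (Epcam, -1.10). Of the glia markers, Gfap, the astrocyte filament, was at 0.304 RPKM or less and S100b at 0.0656 or less in every library. The part of these cells in the RNA of the neural genes was not tested.

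Without RA, GLP 3A cells had more Nes, Sox21, Tubb3 and Map2 RNA and less Stmn3 RNA than wild type. Stmn3 had the largest difference, with a GLP 3A mean of 2.92 RPKM against 15.4 (-2.07 ± 0.16, adjusted p = 0.00171), and its 2 groups are far apart. Tubb3 was 1.76-fold higher by mean RPKM (0.79 ± 0.07, adjusted p = 0.00327), Nes 2.73-fold (0.96 ± 0.15, adjusted p = 0.0145), Sox21 2.41-fold (0.96 ± 0.14, adjusted p = 0.0111) and Map2 1.94-fold (0.69 ± 0.17, adjusted p = 0.0495). For each of the 5 genes both GLP 3A libraries lay on the same side of both wild type libraries. Olig2 and Stmn2, both lower in GLP 3A libraries than in wild type ones, were not called (-0.39 ± 0.10, adjusted p = 0.0554, and -0.42 ± 0.30, adjusted p = 0.43). How large a share of all tested genes has libraries that lie apart in this way was not counted, so nothing is read from it. Olig1 stood level, with overlapping groups (0.03 ± 0.10, adjusted p = 0.918). Pax6 was at 0.531 and 0.602 RPKM in GLP 3A and at 0.0265 and 0.117 in wild type, which was not called (0.55 ± 0.26, adjusted p = 0.225).

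These calls rest on few libraries. Nes and Map2 lost theirs without any 1 of the 4 untreated libraries (adjusted p = 0.0849 to 0.114 for Nes and 0.181 to 0.243 for Map2), and Sox21 without either wild type library or without GLP 3A replicate 1 (adjusted p = 0.0794 to 0.0922), while Stmn3 and Tubb3 kept theirs in every fit that left out 1 library. With 1 library left out, the number of called genes was 2 to 3 without any 1 untreated library, and 8 without either GLP 3A library with RA. Map2 also lost its call at pseudocounts of 0.1 and 0.5, with no filter and with both other scalings (adjusted p = 0.0541 to 0.0906). Of all genes called between untreated genotypes, 64.4% were higher in GLP 3A, against 54.1% (median-of-ratios scaling) and 54.0% (quantile normalization). Of the marker lists, 3 of 6 tested placode and epithelium markers, 1 of 4 tested glia markers (Mbp, 1.08) and 1 of 6 tested mesenchyme and fibroblast markers (Tagln, 0.88) were higher in untreated GLP 3A, and 1 of 6 stem cell markers was lower, Zfp42 (-2.20). The summed RPKM was 344.4 to 355.9 in GLP 3A against 234.0 to 246.0 for the placode list, 8.29 to 10.6 against 10.1 to 10.6 for glia, 18.96 to 21.01 against 11.002 to 12.02 for mesenchyme and 2137 to 2199 against 2500 to 2504 for stem cell markers. Of all tested genes, 7.52% were higher and 4.15% lower without RA, so nothing is read from the counts of these short lists. The part of these markers in the neural differences was not tested.

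With RA, Sox1, Pax3 and Zic1 were lower and Olig1 and Stmn4 higher in GLP 3A than in wild type. Pax3 was at 0.427 and 0.856 RPKM against 3.00 and 3.48 (-1.38 ± 0.15, adjusted p = 0.00797), and Zic1 at 1.01 and 2.02 RPKM against 6.14 and 7.33 (-1.65 ± 0.20, adjusted p = 0.0108). Sox1 was at 0.979 and 3.96 RPKM against 11.2 and 9.07 (-1.82 ± 0.39, adjusted p = 0.0389). The groups did not overlap for Pax3, Zic1 or Sox1. Pax3 passed the filter only through the wild type RA libraries, so its call is fixed in part by the filter. Sox1 was also lower in GLP 3A without RA, without a call (-0.74 ± 0.39, adjusted p = 0.28). In replicate 1 alone the differences were -1.49 for Pax3, -1.83 for Zic1 and -2.62 for Sox1, and in replicate 2 alone -1.27, -1.47 and -1.02. Stmn4 was at 28.3 and 14.0 RPKM against 4.52 and 6.81, a ratio of means of 3.74 (1.68 ± 0.32, adjusted p = 0.0307), with 2.41 in replicate 1 and 0.94 in replicate 2 alone. Olig1 was at 1.06 and 0.780 RPKM against 0.198 and 0.236 (0.66 ± 0.10, adjusted p = 0.0175). In RPKM this remainder of Olig1 is small beside the 36.9 of untreated GLP 3A.

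Pax6, Irx3 and Map2 were also lower in both GLP 3A libraries than in both wild type libraries with RA, without a call (-0.85 ± 0.26, adjusted p = 0.0877, -0.57 ± 0.25, adjusted p = 0.189, and -0.67 ± 0.17, adjusted p = 0.0553). Tubb3, Stmn3, Dcx, Gap43 and Elavl3 were higher in both, again without a call, with differences of 0.18 to 0.57 and adjusted p of 0.0556 for Tubb3 and 0.148 to 0.297 for the others. The share of all tested genes whose libraries lie apart in this way was not counted, so nothing is read from these uncalled genes. Nes did not separate the genotypes (0.17 ± 0.15, adjusted p = 0.517). Replicate 1 of GLP 3A with RA had less Sox1, Pax3, Zic1, Pax6 and Irx3 RNA than replicate 2, and more Stmn4 and Olig1 RNA. The summed RPKM of the stem cell markers was 70.3 in that replicate 1 and 31.0 in replicate 2, and 35.1 and 13.3 in wild type with RA. Of these markers, 2 of 6 were higher in GLP 3A with RA, Nanog (2.25 ± 0.31, adjusted p = 0.0146) and Tdgf1 (1.80 ± 0.32, adjusted p = 0.0261).

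Genes of other marker lists were also called between genotypes with RA. Of all tested genes, 5.3% were higher and 5.31% lower, so nothing is read from the counts of these short lists. Pax3 and Zic1 also act in neural crest and mesoderm. Of 8 tested neural crest and Schwann cell markers 2 were lower in GLP 3A, Tfap2b (-2.09) and Tfap2a (-0.58), and the summed RPKM was 24.2 to 30.7 against 42.1 to 57.3. Heart markers summed to 12.9 to 13.1 RPKM against 26.3 to 27.5, with 1 of 4 tested lower, Hand2 (-2.48). Primitive endoderm markers, 2 of 8 lower, summed to 70.2 to 143.6 against 106.9 to 397.6. The muscle regulators Myf5 and Myod1 were at 0.0310 and 0.0360 RPKM at most with RA, and the skeletal muscle list summed to 20.5 to 29.1 against 17.6 to 20.7 with 0 of 1 tested gene called. Placode and epithelium markers (1 of 6 tested higher) summed to 1061 to 1665 against 834.3 to 910.6, mesenchyme and fibroblast markers (1 of 6 tested higher) to 1266 to 1906 against 971.5 to 1337, and glia markers (0 of 4 tested called) to 12.7 to 20.4 against 18.7 to 25.2. The pancreas and islet list, in which Mnx1 also acts, had 1 of 3 tested genes higher, Ins2 (2.47). It was listed at 0 in all other groups, so it passed the filter only through GLP 3A with RA. Its call is thus fixed in part by the filter. Ins1 and Gcg were listed at 0 in every library. Of 5 tested liver markers 1 was lower, Foxa1 (-0.87). The part of these cells in the neural differences was not tested.

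None of the calls between genotypes with RA was made without the untreated libraries in the fit: in a fit of only the 4 RA libraries 0 of the 22 genes and 15 of all genes were called, and adjusted p was 0.15 for Pax3, 0.167 for Zic1, 0.198 for Olig1, 0.212 for Stmn4 and 0.231 for Sox1. With 1 library left out, the number of called genes was 2 without any 1 untreated library, 1 without wild type RA replicate 1, 0 without wild type RA replicate 2 and 9 without GLP 3A RA replicate 2. Sox1, Olig1 and Stmn4 lost their calls without any 1 untreated library or either wild type RA library, Zic1 without wild type RA replicate 2 (adjusted p = 0.0541), and Pax3 did not pass the filter without either of these. At a pseudocount of 0.1 Sox1 and Stmn4 were not called (adjusted p = 0.0581 and 0.0561), and Olig1 was not with quantile normalization (0.41, adjusted p = 0.0586), nor was Sox1 with no filter (adjusted p = 0.0622).

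The RA response itself differed between genotypes for Pax3 and Stmn3. Pax3 was tested only because both wild type RA libraries reached 1 RPKM, so its call is fixed in part by the filter. It rose by 2.07 in wild type and by 0.65 in GLP 3A, a difference of -1.42 ± 0.21 (adjusted p = 0.0383). Stmn3 had a response of -2.75 in wild type and -0.38 in GLP 3A, a difference of 2.37 ± 0.22 (adjusted p = 0.0172), with GLP 3A already low before RA and all 4 RA libraries between 1.17 and 2.09 RPKM. For Pax3 it is the RA libraries that differ and for Stmn3 the untreated ones. Map2 (-1.36 ± 0.24, adjusted p = 0.0519) and Zic1 (-1.59 ± 0.28, adjusted p = 0.0526) were not called. Both were called with no intensity trend and with robust empirical Bayes (adjusted p = 0.0350 to 0.046). Most alternatives did not call them: Map2 was called in 3 of 16 and Zic1 in 6 of 17. Sox21, Tubb3 and Olig1 followed at adjusted p of 0.0756 to 0.0801. Sox1 had a response of 2.03 in wild type and 0.96 in GLP 3A, and their difference was not called (-1.08 ± 0.56, adjusted p = 0.331). The Pax3 and Stmn3 calls were lost without any 1 of the 4 untreated libraries (adjusted p = 0.174 to 0.196 for Pax3 and 0.0588 to 0.132 for Stmn3), and Pax3 also lost its call at pseudocounts of 0.1 and 0.5 (adjusted p = 0.0894 and 0.0528). With 1 library left out, 0 genes were called without any 1 untreated library, 1 without either wild type RA library and 10 without GLP 3A RA replicate 2.

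**Figure D4:**
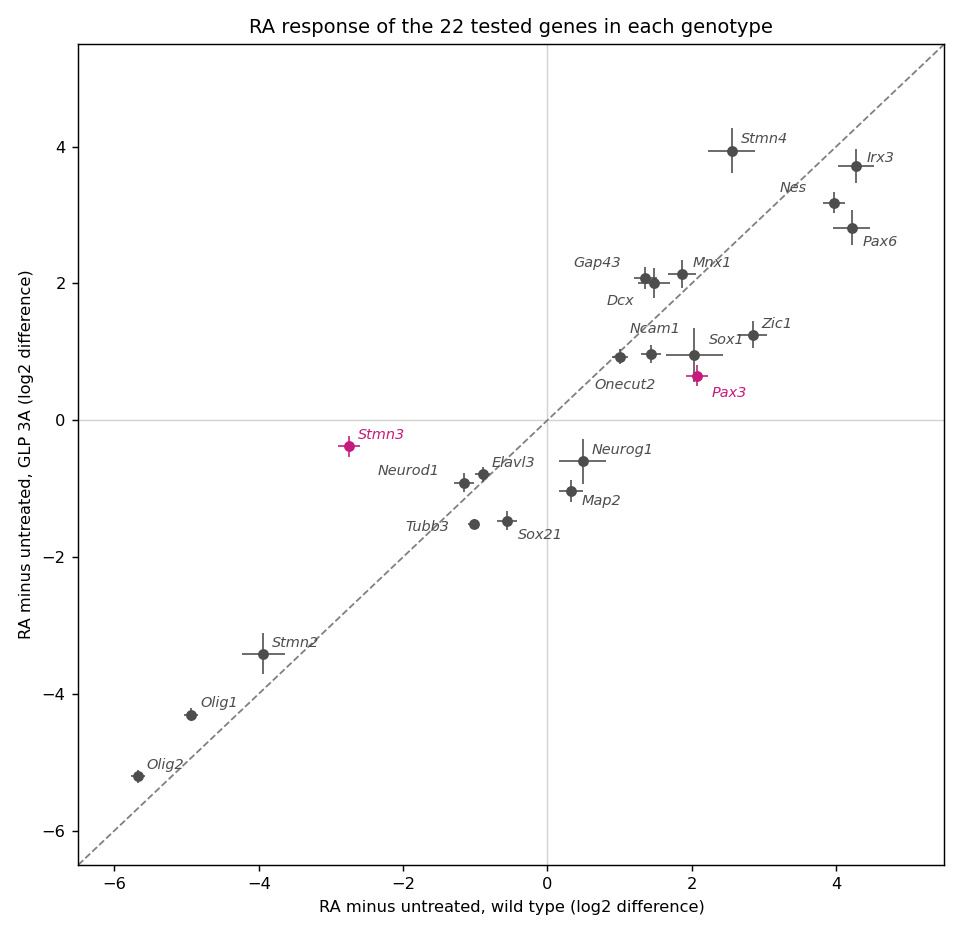
Log2 difference with RA in wild type (horizontal) against that in GLP 3A (vertical) for the 22 tested genes, with bars of 1 SE and the line of equal response dashed. Stmn3 and Pax3 (magenta) are the 2 genes whose responses differ at the threshold, Stmn3 above the line and Pax3 below it, and Olig1, Olig2 and Stmn2 lie at the lower left in both genotypes.

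Other genes of the same roles, from lists that are not part of the 33, were counted in the same fit. The shares of all tested genes given above apply to these counts as well. Some of the genes passed the filter only through the state in which they are higher, so nothing is read from the counts. Of 16 tested other neural progenitor genes, 11 rose and 4 fell with RA in wild type and 9 rose and 5 fell in GLP 3A; Sox2, the SoxB1 factor shared by stem cells and neural progenitors, fell in both (-3.25 and -3.73). Between genotypes 3 were higher without RA (Vim 1.11, Zic2 1.72, Zic5 0.96) and 4 lower with RA, among them Zic2 (-1.11), Pou3f3 (-0.92) and Msi1 (-0.72). The RA response was lower in GLP 3A for 3 of the 16, among them the Zic1 relatives Zic2 (-2.84) and Zic5 (-1.46). Of 7 tested other patterning factors, 6 rose and 1 fell in wild type, 5 and 2 in GLP 3A. Olig3, the dorsal relative of Olig1 and Olig2, was higher in GLP 3A without RA (0.62) and lower with RA (-0.96), with a different response (-1.58). Irx5 (-0.81) and Pax2 (-0.59) were lower with RA. Olig3, Pax2 and Pou3f3 reached 1 RPKM only in the wild type RA libraries. Their calls between genotypes with RA, and the response call of Olig3, are thus fixed in part by the filter.

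Position along the neural axis was read from 2 lists. Of 14 tested hindbrain and spinal cord factors, 12 rose with RA in each genotype, led by Hoxb2 (6.11 and 6.06), and 2 fell in wild type and 1 in GLP 3A. Of 6 tested forebrain and midbrain factors, 2 rose and 3 fell in each genotype, among them Otx2 (-3.82 and -3.29). With RA, Hoxb1 was higher in GLP 3A (0.86) and 3 of the hindbrain and spinal cord factors were lower, among them Hoxc9 (-1.60) and Hoxc8 (-1.30), with 0 forebrain and midbrain factors called. Without RA, Hesx1 was higher (1.72) and Otx2 (-0.56) and Gbx2 (-0.88) were lower. The response differed for Hesx1 (-1.67) and Hoxb1 (0.87). Hesx1 reached 1 RPKM only in untreated GLP 3A, so both of its calls are fixed in part by the filter.

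Of 5 tested other proneural and neuronal differentiation factors, 4 rose in wild type and 2 in GLP 3A, with Sox4 rising in both (2.97 and 3.53), and Sox4 was lower in untreated GLP 3A (-0.77). Of 8 tested other neuron subtype factors, 4 rose and 1 fell in wild type and 5 rose and 2 fell in GLP 3A. Between genotypes Tlx3 was higher without RA (1.06). It reached 1 RPKM only in GLP 3A libraries, so this call is fixed in part by the filter. Lhx1 (-0.82) and Gata3 (-0.67) were lower with RA, each with a lower response (-0.86 and -1.16). Of 15 tested other neuron structural and synaptic genes, 6 rose and 6 fell in each genotype. From that list, Ina (1.14), Nefl (0.73) and Tuba1a (0.62) were higher in untreated GLP 3A, and Chga (1.45), Tubb2a (0.60), Syp (0.60) and Nefh (0.42) were higher with RA. Syp reached 1 RPKM only in GLP 3A with RA, so its call is fixed in part by the filter. In either state 0 of the list were lower. Of all tested genes, just 4.15% were lower without RA and 5.31% with RA, so nothing is read from that 0. Stmn3, of the 33, was lower without RA (-2.07). Rest, the repressor of neuronal genes, fell with RA in both genotypes (-1.39 and -1.72). Of the 11 tested genes of REST and its corepressors, 5 rose and 5 fell in wild type and 5 and 6 in GLP 3A, 1 was lower in untreated GLP 3A (Rcor3, -0.39) and 2 with RA (Ctdsp1 -0.54, Ctdsp2 -0.35).

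The place of the called genes in the genome was looked at after their values were seen. Pax3 (chr1:78097841-78193711) and Map2 (chr1:66221902-66489157) lie on chromosome 1 in mm9, where the median difference of 710 tested genes between genotypes was -0.24 without RA and -0.31 with RA. The other autosomes and the X chromosome had medians of 0.00 to 0.08 and -0.06 to 0.00, apart from chromosome 11 at 0.24 in both. The Y chromosome had the largest medians, 2.02 without RA and 1.68 with RA, over just 4 tested genes. The cause of these shifts was not tested. The part of the chromosome 1 shift in the Pax3 and Map2 differences was not tested either. Among the 20 nearest tested genes of the 5 called genes in each state, 1 was called in the same direction as its neighbour without RA, Rtel1 (-0.66) at 5223 bases from Stmn3. With RA there were 3: Epha4 (-1.31) and Farsb (-0.40) beside Pax3, and Ptk2b (1.117) beside Stmn4. Epha4 is 586178 bases from Pax3. Pikfyve (-0.45), beside Map2, was called in the other direction without RA. Of all tested genes, 11.7% were called between genotypes without RA and 10.6% with RA, so nothing is read from these counts.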

How the data were processed

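The deposited values are RPKM, listed by symbol with a locus, as the authors' files give them. Cufflinks, TopHat, SAMtools and Bowtie 0.12.7 are named in the submitters' processing notes, as is mm9; how strand and overlapping genes were handled is not stated in these sources. Reads are normalized to gene length and library total by the authors, so a large change in a few genes moves all others. Each file lists 23234 symbols, and 12 that were not in all were left out. Zeros were used as deposited; leaving out short RNA genes, 43 stand beside 5 RPKM or more in the other library of the group. Sample groups come from the labels.

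RPKM were analysed as log2(RPKM + 1) with limma 3.58.1 in R 4.3.3: 4 group means over all 8 libraries, empirical Bayes with an intensity trend, two-sided moderated tests, Benjamini-Hochberg adjustment across 13198 genes that reached 1 RPKM in 2 or more libraries, called under 0.05. The script was tested on simulated data. The response comparison is an interaction. The 33 genes and all lists were chosen with earlier results of these data known. All 33 are named, and from other lists at most 4 called and 2 uncalled genes per comparison. Alternatives were other pseudocounts, filters, scalings and priors, a fit of just the 4 libraries in a comparison, a block for replicate number, each library left out, and, added after the data were seen, replicate 1 alone. Some genes of the other lists are counted but not reported here by name.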

Additional observations from a re-analysis of the deposited data

Results flagged for a closer look

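The RA response of Pax3 was smaller in GLP 3A than in wild type in the test of the difference, -1.42 ± 0.21 on the log2 scale (limma, adjusted p = 0.0383 over all tested genes). Both GLP 3A libraries with RA, at 0.427 and 0.856 RPKM, lay below both wild type libraries, at 3.00 and 3.48. Pax3 passed the filter on low values only through those wild type libraries, so the call is fixed in part by the filter. Over the alternatives in which Pax3 was tested the difference was -2.59 to -1.23.

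The RA response of Stmn3 differed by 2.37 ± 0.22 (adjusted p = 0.0172), again by the test of the difference. Without RA, Stmn3 had 15.7 and 15.02 RPKM in wild type but 3.37 and 2.47 in the mutant, and the 4 RA libraries had 1.17 to 2.09. Over the alternatives the difference was 2.19 to 2.83.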

How the results depend on the processing

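Called genes among the 22 numbered 20, 19, 5, 5 and 2 for RA in wild type, RA in GLP 3A, the untreated genotypes, the genotypes with RA and the difference of responses. A filter of 5 RPKM left 12 of them to test and gave 12, 10, 3 and 1 in the first 3 and the last of these. Only the 4 libraries compared gave 11 between untreated genotypes and 0 with RA. A pseudocount of 0.1 gave 3 with RA, a pseudocount of 0.5 gave 1 for the responses, and no intensity trend or robust empirical Bayes gave 4 each. With each library left out, the counts ran from 2 to 8 untreated, 0 to 9 with RA and 0 to 10 for the responses; the lone library of a group is then assumed to vary like the others. The cause of these changes was not tested beyond fewer genes or libraries in the fit.

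With the replicate block the counts were 20, 19, 6, 7 and 3. The labels do not say that a number marks a shared batch; deviations of same-numbered libraries correlated at 0.169 to 0.355 between groups over all genes.

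Single differences were mostly stable: 1756 kept direction and side of the threshold, 58 lost and 57 gained a call, and 27, none called in the fit reported, changed sign. With quantile normalization these were Map2 for RA in wild type (-0.013), Olig1 (-0.048) and Mnx1 (-0.0048) untreated, Sox21 (-0.049), Olig2 (-0.0053) and Onecut2 (-0.052) with RA and Elavl3 for the responses (-0.048), and with median-of-ratios scaling Olig1 untreated (-0.022). With 1 library left out, the ranges were -0.0070 to 0.99 for Neurog1 with RA in wild type. Between untreated genotypes they were -0.033 to 0.084 (Olig1), -0.10 to 0.14 (Mnx1) and -0.10 to 0.070 (Irx3). Between genotypes with RA they were -0.037 to 0.14 (Sox21), -0.039 to 0.19 (Olig2), -0.047 to 0.13 (Onecut2), -0.068 to 0.40 (Nes), -0.28 to 0.50 (Stmn2), -0.63 to 0.37 (Neurog1) and -0.22 to 0.050 (Neurod1). For the responses they were -0.16 to 0.016 (Onecut2) and -0.018 to 0.56 (Mnx1). Depth limits the genes under 1 RPKM, most in replicate 2.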
